A study of Bos taurus with 14 samples.

Results

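Bovine embryonic stem cells derived from blastocysts were compared here between cultures with low and with high mRNA of BNIP3, a mitophagy receptor whose gene is a well-known target of hypoxia-inducible factor. The cultures are 8 of the 14 samples of the series: lines A and B, each sequenced once at 4 later passages, written below as A P13, A P23, A P35 and A P45, and B P12, B P24, B P35 and B P46. BNIP3 stood at 94.3 RPKM (reads scaled to feature length and library size) in A P13, 190.5 in A P35 and 149.99 in B P35, and these 3 libraries, chosen by their BNIP3 value under 200 RPKM, form the BNIP3-low group. The other 5 form the BNIP3-high group, with 410.4 RPKM in A P23, 507 in A P45, 369 in B P12, 206 in B P24 and 386 in B P46. A P35 and B P24, at 190.5 and 206 RPKM, lie just inside and just outside the threshold. Each group holds both lines, and passages 13 and 35 are set against passages 12, 23, 24, 45 and 46. Both libraries of passage 35 are BNIP3-low, so a difference particular to that passage cannot be told apart from the split. Because the groups were made from these expression values, the comparison is a description, no gene in it was tested, and BNIP3 itself is left out of all counts.

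All 8 cultures were kept alike, per the labels. They grew in CTFR medium that held FGF2 (20 ng/mL) and IWR1 (2.5 μM), at 37 °C in 5% CO2, on MEFs, the abbreviation in use for mouse embryonic fibroblast feeder cells. They were passaged every 4 to 5 days with a 1:10 split. IWR1 stabilises axin and so dampens canonical WNT signalling, and FGF2 drives the ERK pathway. The labels describe no difference in treatment between the BNIP3-low and the BNIP3-high cultures. Lines A and B are 1 cell line each, and the libraries of a line are successive passages of the same cells, so no library is an independent derivation. The remaining samples are both lines at P10, 2 pools of 10 blastocysts and 2 skin fibroblast lines, deposited as another set of files and set beside the results only at the end.

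As background, cells sense oxygen through prolyl hydroxylases (EGLN1, EGLN2 and EGLN3), which mark the alpha subunits of hypoxia-inducible factor (HIF1A, EPAS1, HIF3A) for destruction by the VHL ubiquitin ligase, while HIF1AN blocks their activity by asparagine hydroxylation. When oxygen is short the alpha subunit is stabilised, pairs with ARNT and switches on genes for glucose uptake, glycolysis, glycogen storage, mitochondrial clearance, collagen hydroxylation and secreted vascular factors, and also EGLN1 and EGLN3 as feedback. The control lies mainly on the protein, so the HIF1A transcript need not move with the activity of the factor. A separate response, through the transcription factor ATF4, answers shortage of amino acids and stress of the endoplasmic reticulum.

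Of 24616 features in the later-passage files, 12784 had at least 1 RPKM in at least 2 libraries and were kept. A gene near 1 RPKM could thus be kept through only the group where it was higher. Absolute read depth is unknown. Relative depth, from the values that 1 read gives, ran from 0.7103 (A P35, a BNIP3-low library) to 1.0275 (B P12) times that of A P13. GAPDH is listed at 0 in all 8 libraries, so a 0 in these tables may mark a missing estimate. POU5F1 and NANOG were not analysed here. Differences below are the mean log2(RPKM + 1) of the BNIP3-high libraries minus that of the BNIP3-low ones, which understates differences of genes near 1 RPKM. They are given relative to the median feature, which stood at -0.101 as deposited, 0.002 after median-of-ratios scaling and -0.007 after quantile normalization. A feature is called separated where the 3 low and the 5 high libraries do not overlap and the means as deposited differ by at least 1 on the log2 scale. RNA of a whole culture was measured, so fewer cells of a type and less RNA per cell cannot be told apart.

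Over all features, 938 (7.34%) lay higher and 2669 (20.9%) lower in every BNIP3-high than in every BNIP3-low library, and 49 (0.383%) and 70 (0.548%) were separated. These shares follow from a split made on the same libraries, and nothing is read from them. Every count without overlap as deposited below is to be set beside 7.34% higher and 20.9% lower. The balance of directions depends on the scaling: 26.0% of the features without overlap were higher in the BNIP3-high group as deposited, 56.0% after median-of-ratios scaling and 50.6% after quantile normalization. After median-of-ratios scaling 14.8% of all features lay higher and 11.6% lower without overlap, the shares to set beside every count under that scaling below. Among the separated features the share that was higher was 41.2% as deposited, 61.3% (73 higher, 46 lower) after median-of-ratios scaling and 60.4% (67 higher, 44 lower) after quantile normalization. All 49 higher and 46 of the 70 lower features stayed separated under median-of-ratios scaling, and 47 and 44 under quantile normalization. A further 15 features higher and 13 lower by at least 1 on the log2 scale were not separated because the groups overlapped.

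**Figure D1:**
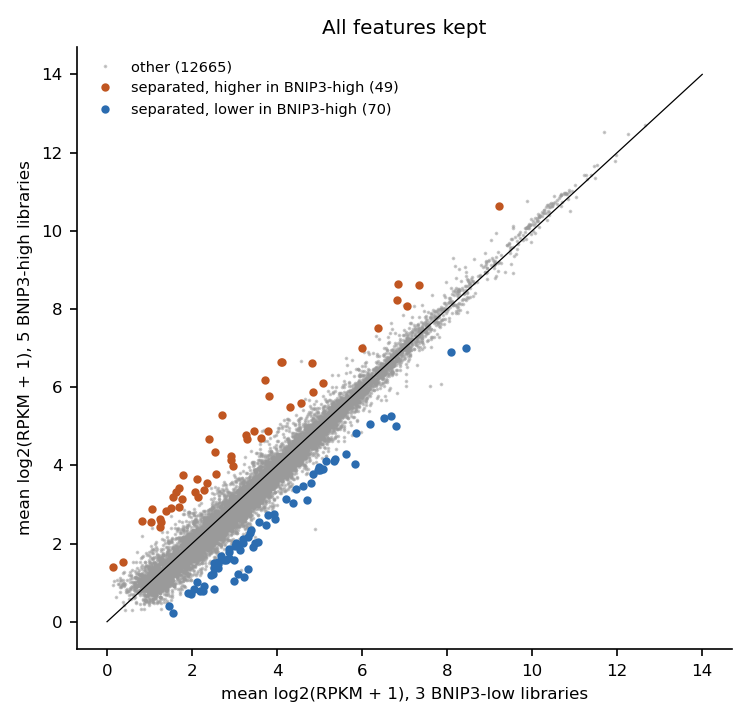
Each point is 1 of the 12784 features kept, with its mean log2(RPKM + 1) in the 3 BNIP3-low libraries on the x axis and in the 5 BNIP3-high libraries on the y axis; the line marks equal means. The 49 orange features were separated and higher in the BNIP3-high group and the 70 blue ones separated and lower, as deposited, and both kinds occur over most of the range of levels.

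The libraries were not alike within a group. A P13 had the lowest value of all 8 in 31 of the 49 higher features and the highest in 47 of the 70 lower ones, whereas A P23 had the lowest in 60 of the 70. B P35 was the BNIP3-low library closest to the other group in 29 of the 49. Without B P35 the separated features numbered 105 higher and 116 lower, and without A P35 they numbered 67 and 108. Leaving out any library eases the condition of no overlap. Over the 8 such runs the counts were 43 to 105 higher and 59 to 116 lower. Longer lists are thus not by themselves particular to B P35 or A P35. With both libraries nearest the threshold, A P35 and B P24, left out, 82 were higher and 124 lower.

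Among the oxygen sensing genes EGLN1 was higher in the BNIP3-high libraries, while HIF1A and most others overlapped. HIF1A had 93.2, 87.7 and 98.9 RPKM in A P13, A P35 and B P35, against 89.9, 103, 94.2, 102 and 91.8 in A P23, A P45, B P12, B P24 and B P46, and every later list of BNIP3-low against BNIP3-high values keeps this order of libraries. The 2 groups overlapped fully for HIF1A, with means of 93.3 ± 5.60 (SD, n = 3) and 96.1 ± 5.93 RPKM (SD, n = 5). Its partner ARNT overlapped too (13.3 to 17.4 against 16.2 to 17.4 RPKM). So did VHL (6.53 to 7.43 against 7.27 to 9.85 RPKM) and the low-level HIF3A (2.20 to 3.43 against 2.00 to 2.69). The inhibitor HIF1AN (11.8 to 15.9 against 12.5 to 16.0 RPKM) and CITED2 (50.04 to 71.5 against 39.1 to 50.3), which competes with HIF for its coactivators, were no different in this. The prolyl hydroxylases went different ways. EGLN1, itself a HIF target, had 8.22, 16.3 and 12.3 RPKM in the BNIP3-low and 22.3, 26.5, 27.8, 19.5 and 22.7 in the BNIP3-high libraries without overlap, a difference of 1.04. EGLN2 was lower in the BNIP3-high libraries (18.2 to 23.2 against 14.3 to 18.0 RPKM, -0.30), but overlapped after median-of-ratios scaling. EGLN3 overlapped (38.4 to 45.4 against 31.2 to 40.5 RPKM, -0.14), although it too is known as a HIF target. Of the 11 genes of this list 10 were matched and 9 kept, and EPAS1 and ARNT2 are not among the 9. Of the 9 genes of this list that were kept, 1 lay higher and 1 lower without overlap. The list's median difference was 0.09, where the median of all features is 0 by construction. HIF3A has no settled direction, since the sign of its difference turned under quantile normalization.

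Genes that feed back on the hypoxia response or carry it on as transcriptional regulators included the largest difference of a gene with a symbol, that of ANKRD37. ANKRD37, an ankyrin-repeat protein and direct HIF target, had 2.37, 3.98 and 15.9 RPKM in the BNIP3-low libraries and 39.7, 44.8, 37.2, 30.7 and 37.7 in the BNIP3-high ones, with means of 7.40 ± 7.37 (SD, n = 3) and 38.0 ± 5.08 (SD, n = 5) and a difference of 2.66. Its 2 lowest values were both from line A, and B P35 lay between them and the BNIP3-high group. DDIT4, an inhibitor of the growth kinase mTORC1, was the most abundant of the 4 separated genes, at 99.3, 87.6 and 169.6 RPKM against 386, 405, 456, 349 and 411 (1.90). The transcriptional repressor BHLHE40, which also acts in the circadian clock, had 6.82, 6.03 and 14.9 against 21.3, 28.0, 29.4, 29.7 and 24.1 RPKM (1.61). Its relative BHLHE41 had 1.55, 1.15 and 5.30 against 7.62, 10.5, 11.5, 10.9 and 8.46 RPKM (1.82). B P35 was the highest of the BNIP3-low libraries for all 4 genes. Of the 14 genes of the feedback and transcription list, 7 lay higher without overlap, 0 lower, and 4 were separated. The median difference was 0.67. KDM3A, a histone demethylase, also lay higher without overlap (25.7 to 30.6 against 32.5 to 51.4 RPKM), as did ZNF395 (7.88 to 10.8 against 14.6 to 23.6). These 2 genes and the list members without separation in the next paragraphs were picked with their values in view.

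**Figure D2:**
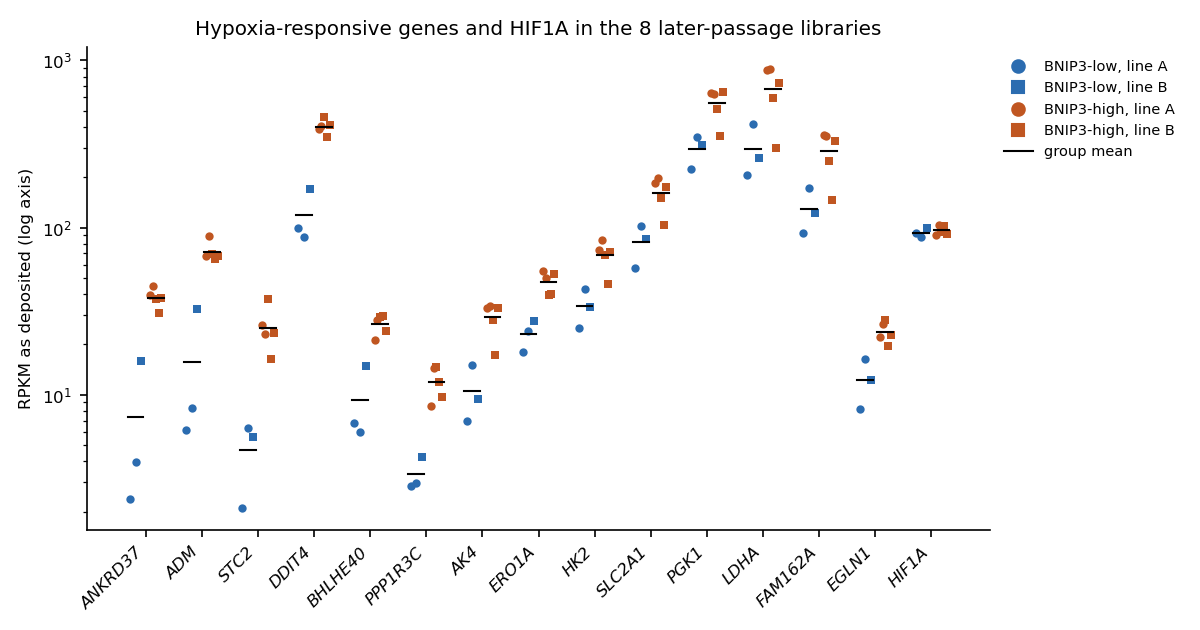
RPKM as deposited (log axis) of 14 hypoxia-responsive genes and HIF1A, 1 point per library, circles for line A and squares for line B, blue for the 3 BNIP3-low and orange for the 5 BNIP3-high libraries, with a bar at each group's mean. ANKRD37 runs from 2.37 to 15.9 RPKM in the low and from 30.7 to 44.8 in the high group, LDHA and FAM162A overlap through A P35 and B P24, and HIF1A is level at 87.7 to 103 RPKM.

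Secreted and cell surface products followed in part. ADM, which encodes the vasodilator peptide adrenomedullin, had 6.13, 8.37 and 32.7 RPKM against 67.7, 88.5, 69.8, 65.3 and 67.4 (2.57), so that B P35 held several times the level of the other low libraries. STC2, a secreted glycoprotein named stanniocalcin, had 2.11, 6.34 and 5.58 against 26.1, 23.2, 37.2, 16.3 and 23.4 RPKM (2.36) and kept a wide gap to all 3 low libraries. VEGFA, the chief angiogenic factor of the response, did not separate the groups: B P35 had 20.8 RPKM, inside the 20.1 to 26.7 of the BNIP3-high libraries, while A P13 and A P35 had 8.86 and 11.9. NDRG1 was highest of all in B P35, at 22.2 RPKM against 14.7 to 19.3 in the BNIP3-high group and 7.48 and 8.68 in the other low libraries. The carbonic anhydrase CA9, a commonly used hypoxia marker, lay higher without overlap but was barely expressed (0.834 to 1.86 against 1.91 to 3.53 RPKM). Of 11 genes kept, 4 lay higher and 1 (TFRC, the transferrin receptor, 12.5 to 13.5 against 9.45 to 12.4 RPKM) lower without overlap. ADM and STC2 were the 2 separated ones, and the median was 0.80. TFRC overlapped after median-of-ratios scaling.

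For collagen modification, ERO1A, the oxidase that recharges protein disulphide isomerase in the endoplasmic reticulum, was the separated gene, at 17.9, 24.0 and 27.5 against 55.2, 50.01, 39.7, 39.8 and 52.9 RPKM (1.11). The collagen prolyl hydroxylase subunit P4HA1 and the lysyl hydroxylase PLOD1 were higher by the mean but overlapped, because A P35 exceeded B P24. P4HA1 had 22.9 RPKM in A P35 and 21.2 in B P24, and PLOD1 had 30.7 and 21.9. Among mitochondrial and lipid genes of the response, AK4, an adenylate kinase of the mitochondrial matrix, had 6.95, 15.2 and 9.43 against 33.1, 34.2, 27.9, 17.4 and 33.2 RPKM (1.51). FAM162A, a mitochondrial protein, had 92.7, 171 and 123 against 358, 355, 249, 146 and 328 RPKM (1.22). PDK1, a kinase that inhibits pyruvate dehydrogenase, had 11.4, 20.1 and 12.7 against 31.5, 34.6, 24.2, 13.9 and 30.5 RPKM (0.91). Both overlapped through A P35 and B P24. BNIP3L, the paralog of BNIP3 and likewise a mitophagy receptor, ranged over 79.8 to 98.3 against 95.8 to 147 RPKM (0.60) and overlapped. In this list of 6 genes B P24 was the lowest BNIP3-high library for all 6, and 1 gene lay higher without overlap. In the collagen list of 7, 1 lay higher and 1 lower. The medians were 0.97 and 0.66.

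Glycogen genes were partly higher. PPP1R3C, the subunit that brings protein phosphatase to glycogen and favours its synthesis, had 2.87, 2.97 and 4.24 against 8.60, 14.4, 14.6, 11.9 and 9.70 RPKM (1.65). The branching enzyme GBE1 lay higher without overlap (13.1 to 16.2 against 16.5 to 35.7 RPKM), as did the phosphorylase PYGL (26.8 to 29.4 against 34.3 to 45.5). Glycogen synthase GYS1 overlapped (9.19 to 12.3 against 8.40 to 10.1 RPKM). In all, 5 of 8 lay higher and 2 (PYGB and UGP2) lower without overlap, and the median was 0.41. After median-of-ratios scaling 0 lay lower. Glucose uptake and glycolysis were graded rather than split into distinct levels. HK2, the inducible hexokinase at the entry of glycolysis, was the only separated gene of this list, with 25.0, 43.1 and 33.5 against 73.2, 84.4, 68.4, 45.9 and 71.2 RPKM (1.11), and A P35 and B P24 were nearly level. The glucose transporter SLC2A1 had 57.4, 102 and 85.0 against 185, 197, 149.7, 103 and 174 RPKM (1.08). PGK1, a kinase of the pathway that yields ATP, had 223, 346 and 312 against 639.8, 630.1, 509.7, 353 and 648 RPKM (1.01). Both kept their groups apart by a narrow margin between A P35 and B P24. LDHA, which turns pyruvate into lactate, showed the largest mean difference of the list (1.27) at 207, 414 and 259 against 875, 888, 597, 301 and 729 RPKM, yet overlapped because A P35 exceeded B P24. LDHB, the subunit that favours the reverse reaction, also lay higher without overlap (717 to 792 against 1003 to 1138 RPKM, 0.62), and there B P24 was the highest library. Of 20 glycolytic genes kept, 7 lay higher without overlap and 0 lower. All 20 had a difference above that of the median feature, and the median was 0.65. A P13 was the lowest library of all for 17 of them, and B P24 the lowest of the BNIP3-high group for 14.

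Taking the feedback, secreted, collagen, mitochondrial, glycogen and glycolysis lists as 1 set of 66 genes, 25 lay higher and 4 lower without overlap and 37 overlapped, where 7.34% and 20.9% of all features lay so. Of these 10 were separated (all higher), 58 of the 66 had a difference above the median feature, and the median was 0.68. After median-of-ratios scaling 0 lay lower in each of the 6 lists (11.6% of all features). Higher there (14.8% of all features) were 9 of 14 feedback, 5 of 11 secreted and 2 of 7 collagen genes. So were 3 of 6 mitochondrial, 5 of 8 glycogen and 11 of 20 glycolysis genes. How much of the set a label of low and high hypoxia signature would cover thus depends on the scaling, and the groups are called here by BNIP3. A P13 was the lowest of all 8 libraries in 46 of the 66, B P24 the lowest BNIP3-high library in 40, and A P35 the highest BNIP3-low library in 37. By mean level over the glycolysis list the order from low to high, in log2(RPKM + 1), was A P13 (5.80), B P35 (6.13), and A P35 and B P24 level at 6.28. Above these came B P12 (6.60), B P46 (6.76), A P23 (6.77) and A P45 (6.80).

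**Figure D3:**
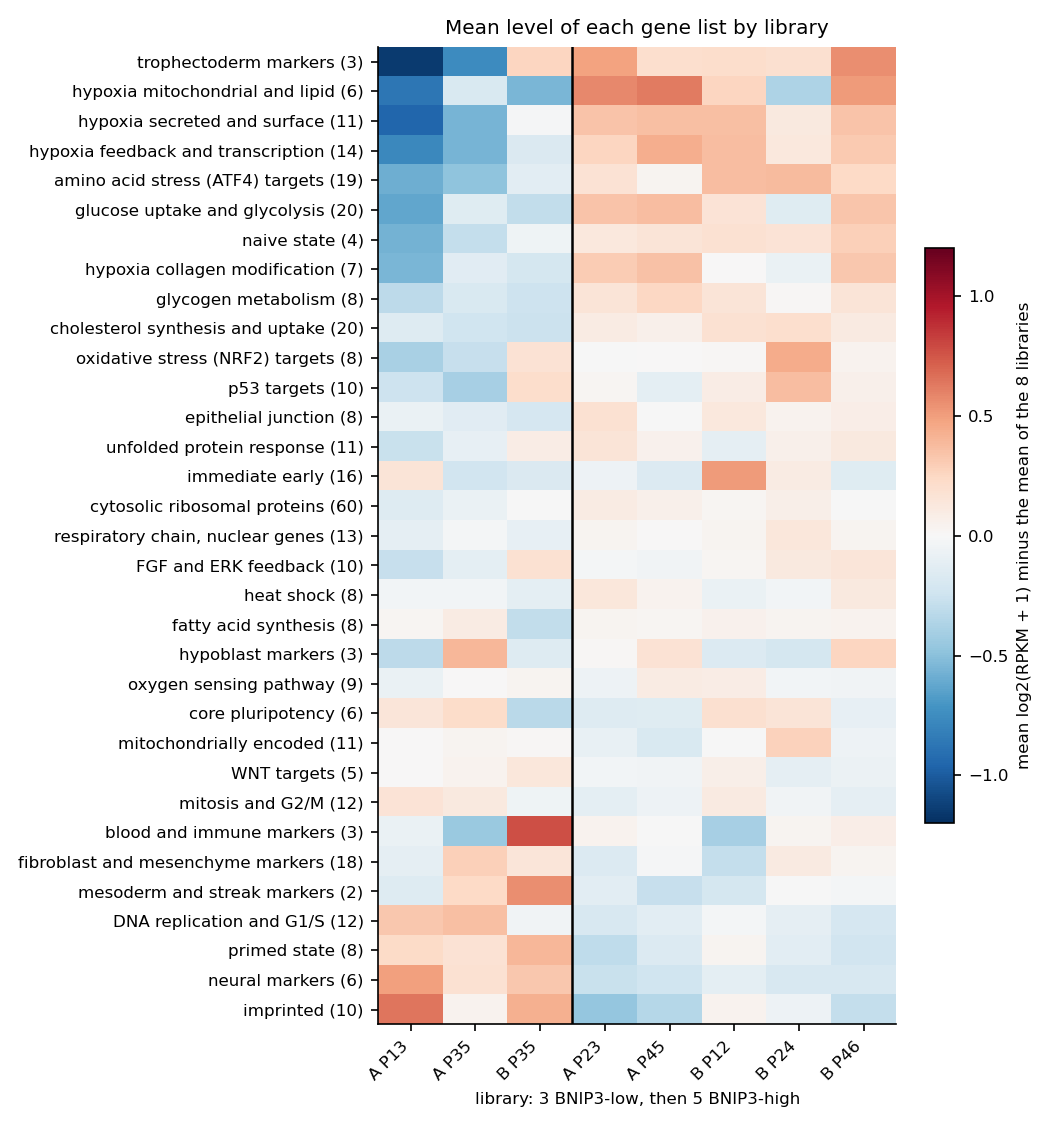
Mean log2(RPKM + 1) of each gene list (rows, with the number of genes kept) in each library (columns, 3 BNIP3-low left of the line and 5 BNIP3-high right of it), minus the mean of that list over the 8 libraries; red is above and blue below that mean. Rows are ordered by the difference between the groups: hypoxia, glycolysis and amino acid stress lists stand near the top, where A P13 is the bluest column, and imprinted and neural lists at the bottom. The trophectoderm row rests on 3 keratins.

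Many targets of ATF4 were higher in the BNIP3-high libraries as well. CHAC1, which breaks down glutathione, had 1.37, 1.64 and 5.48 against 10.6, 9.31, 16.0, 16.5 and 11.3 RPKM (2.07). TRIB3, a pseudokinase that restrains ATF4, had 0.493, 0.572 and 2.67 against 4.74, 2.97, 5.38, 6.87 and 4.86 RPKM (1.61). Only B P35 of the BNIP3-low libraries reached 1 RPKM, so TRIB3 passed the filter through the BNIP3-high group. Nothing is read from its direction or from its place in the counts of this list. ATF4 itself had 169, 188 and 244 against 326, 290.4, 330.5, 333 and 356 RPKM (0.82), a smaller difference at a higher level. The asparagine synthetase gene ASNS had 41.0, 51.4 and 36.1 against 79.9, 67.7, 78.6, 79.2 and 84.6 (0.96). The serine synthesis enzyme PHGDH lay higher without overlap (52.985 to 79.4 against 90.8 to 116 RPKM), as did MTHFD2 of mitochondrial folate metabolism (10.4 to 11.9 against 14.4 to 20.2). The amino acid transporter pair SLC7A5 (9.63 to 13.1 against 14.4 to 25.2 RPKM) and SLC3A2 (27.4 to 38.8 against 49.2 to 57.0) did the same. The stress factors DDIT3 and ATF3 did not keep the groups apart. DDIT3 had 45.6 RPKM in B P35, within the 40.9 to 66.7 of the BNIP3-high libraries, but 18.7 and 16.6 in A P13 and A P35. ATF3 had 25.1 RPKM in B P35, with 21.4 to 31.9 in the BNIP3-high libraries and 9.84 and 6.59 in A P13 and A P35. Of 19 genes kept, 11 lay higher and 0 lower without overlap, 2 were separated, and the median was 0.71. B P24, the BNIP3-high library with the lowest glycolytic levels, was here the highest of all 8 for 7 genes and B P12 for 6, so the 2 programmes did not rank the libraries alike.

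Neighbouring stress responses showed less. Of 11 genes of the unfolded protein response, HERPUD1, a factor of endoplasmic reticulum degradation, was separated (20.6, 22.3 and 45.3 against 68.7, 54.4, 50.5, 53.4 and 63.5 RPKM, 1.14). The others overlapped, and the median was 0.22. HMOX1, the haem oxygenase among the NRF2 targets, overlapped (12.6, 8.83 and 31.5 against 30.4, 26.3, 27.8, 43.9 and 25.3 RPKM), as did 6 other genes of that list of 8. Among 10 p53 targets the cyclin CCNG1 lay higher without overlap (105 to 126 against 144 to 181 RPKM, 0.55), while the apoptosis gene BAX overlapped (51.0 to 62.3 against 46.3 to 62.3). The cell cycle inhibitor CDKN1A had 8.83, 6.17 and 27.1 against 25.4, 16.8, 38.3, 43.0 and 26.3 RPKM, again with B P35 among the high libraries. The immediate early genes EGR1 (223, 128 and 85.6 against 86.6, 88.2, 182, 99.6 and 73.6 RPKM) and FOS (151, 74.4 and 53.004 against 81.4, 73.1, 159, 77.9 and 68.1) did not follow BNIP3. For both genes the highest values were in A P13 and B P12, the earliest of these passages of each line, which lie on opposite sides of the split. Of the FGF and ERK feedback genes, 1 of 10 lay higher without overlap. DUSP4, an ERK phosphatase, had 27.0, 41.4 and 98.8 against 115, 100.4, 101, 94.5 and 126 RPKM and overlapped through B P35. DUSP6, another, also overlapped (78.5 to 144 against 110.4 to 148 RPKM). Of 8 heat shock genes 3 lay higher without overlap (HSPB1, HSPD1 and HSPE1, the last at 465 to 498 against 545 to 589 RPKM) and 2 lower, and the median was 0.24. The abundant HSPA8 lay lower without overlap (683 to 806 against 629.9 to 673 RPKM, -0.12), but after median-of-ratios scaling 4 genes of the list lay higher and 0 lower. HSP90AA1 overlapped (491 to 595 against 589.6 to 615 RPKM).

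Sterol genes were higher by a moderate amount. HMGCS1, an early enzyme of cholesterol synthesis, had 385, 327 and 484 against 612, 599.9, 605, 651 and 616 RPKM (0.75). FDFT1, the squalene synthase, had 153, 135 and 197 against 229, 211, 218, 219.8 and 231 RPKM (0.57). INSIG1, which encodes a brake on the pathway, had the largest difference of the list (1.04) at 51.9, 34.7 and 83.7 against 101, 88.9, 107, 116 and 104 RPKM. In all, 12 of 20 genes lay higher without overlap, 0 lower, and the median was 0.43. By the size of the difference 0 were separated as deposited and 1 after median-of-ratios scaling. Of 8 fatty acid genes 3 lay higher without overlap: FASN, the desaturase SCD (165 to 201 against 227 to 259 RPKM, 0.47) and ACLY, which supplies acetyl-CoA (153 to 165 against 187 to 211, 0.42). The median was 0.23.

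No nuclear gene of the respiratory chain list lay lower without overlap where glycolytic genes lay higher. Nuclear genes of the respiratory chain had a median difference of 0.24, with 6 of 13 higher and 0 lower without overlap. ATP5A1, a subunit of ATP synthase, had 547 to 583 against 641 to 654 RPKM (0.29). ATP5B overlapped (377 to 414 against 384 to 485 RPKM) and changed sign under quantile normalization. The mitochondrially encoded COX1 (5306 to 7516 against 5408 to 9186 RPKM) and COX3 (3850.4 to 4314 against 3539.5 to 4553) overlapped and had no settled sign. The list's median was 0.05, or -0.18 after quantile normalization. Ribosomal protein genes lay higher without overlap in 30 of 60 as deposited (7.34% of all features). After quantile normalization 8 of the 60 did so, near the share of all features (12.3%). As deposited RPS2 had 2855 to 3022 against 3075 to 3487 RPKM, and RPS20 2704 to 2897 against 3065 to 3409. RPS2 changed sign under quantile normalization, and no direction is given for the family.

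Several of the largest differences in the higher direction belonged to genes outside these lists. LCK, a Src-family kinase best known from T cells, had 18.3, 38.0 and 28.5 against 159.5, 115, 71.1, 56.1 and 121 RPKM (1.91). VGLL1, a cofactor of TEAD transcription factors, had 4.69, 5.68 and 4.07 against 12.9, 10.2, 25.5, 32.0 and 24.0 RPKM (1.91), and within the BNIP3-high group all line B libraries exceeded both line A libraries. ADH6, an alcohol dehydrogenase, had 159, 151 and 57.6 against 161, 188, 458, 496 and 361 RPKM (1.53), and the difference was 0.29 within line A and 2.95 within line B. KRT7, a keratin of simple epithelia, had 5.22, 8.23 and 15.1 against 34.2, 22.7, 16.4, 20.0 and 34.8 RPKM (1.49). FGF19, a secreted growth factor (1.44 to 3.36 against 6.47 to 12.8 RPKM) and INHBE, an activin subunit (0.336 to 1.98 against 3.13 to 6.16), were separated at low levels. For INHBE only B P35 of the BNIP3-low libraries reached 1 RPKM. It thus passed the filter through the BNIP3-high group, and nothing is read from its direction. FGF19, INHBE and MRPL45 were picked with their values in view. MRPL45, a protein of the mitochondrial ribosome, was separated at 53.8 to 74.1 against 90.8 to 152 RPKM (1.11).

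Epithelial genes were mixed. CDH1, the adhesion protein E-cadherin, lay higher without overlap (39.5 to 54.4 against 60.0 to 73.3 RPKM, 0.58), as did EPCAM (16.4 to 17.8 against 31.0 to 43.6, 1.08). The junction scaffold TJP1 lay lower (40.6 to 42.3 against 27.9 to 31.5 RPKM, -0.39), and CLDN6 overlapped (86.1 to 106 against 83.7 to 101) with a sign that turned with the scaling. The counts were 4 higher and 1 lower of 8. KRT18, a keratin that is also a trophectoderm marker, lay higher without overlap (80.9, 123 and 188 against 259, 219, 202, 199.98 and 274 RPKM, 0.99), and its partner KRT8 overlapped through B P35 (154, 217 and 458 against 479, 413, 333, 341 and 514). Trophectoderm is the outer layer of the blastocyst that forms the placenta. Its summed markers ranged over 262 to 722 RPKM in the low and 621 to 874 in the high libraries. Of 10 markers matched, the 3 kept were the keratins KRT8, KRT18 and KRT19. The defining factors were at or near 0: CDX2 is listed at 0 in all 8, and GATA2, GATA3, TFAP2A, TFAP2C, ELF5 and HAND1 stayed under 1 RPKM in all 8.

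The genes lower in the BNIP3-high cultures were of other kinds. SIX3, a homeobox factor of early forebrain and eye, had 83.6, 33.6 and 63.3 against 6.75, 11.9, 32.8, 24.7 and 12.2 RPKM (-1.71), with A P35 and B P12 nearly touching. The LIM homeobox gene LHX5 had 34.5, 20.6 and 21.9 against 5.40, 6.11, 14.4, 8.42 and 6.06 RPKM (-1.50), and its relative LHX2 had 24.7, 10.5 and 11.5 against 2.19, 3.21, 8.71, 8.20 and 6.72 (-1.21). For both, and for the bZIP factor MAF (16.2, 7.25 and 10.6 against 1.85, 2.62, 5.01, 4.21 and 2.53 RPKM, -1.43), A P13 was the highest library and A P23 the lowest. SMOC1, a secreted calcium-binding matrix protein, had 142, 86.4 and 107 against 20.7, 26.4, 47.9, 46.6 and 24.4 RPKM (-1.67). The brain proteoglycan NCAN had 11.5, 12.2 and 13.1 against 3.93, 4.76, 4.47, 4.47 and 5.10 (-1.16), with little spread in either group. CRABP1, which binds retinoic acid in the cytoplasm, was the most abundant of the 12 at 279, 290.0 and 506 against 119, 137, 119, 117 and 145 RPKM (-1.33), and here B P35 was highest. IRS4, an adaptor of the insulin receptor, had 129.9, 81.2 and 100.1 against 26.0, 36.6, 67.5, 39.9 and 27.4 RPKM (-1.33). The receptor and membrane genes among the 12 were AGTR1, a receptor for angiotensin II (7.498 to 12.4 against 1.87 to 4.28 RPKM, -1.35) and TMEM2, a hyaluronidase of the cell surface (35.5 to 65.0 against 14.7 to 24.7, -1.25). The dystrophin gene DMD (11.3 to 30.6 against 4.93 to 10.4 RPKM, -1.24) and the cadherin CDH6 (73.7 to 114 against 27.3 to 43.7, -1.18) complete them. Among genes picked with their values in view, the homeobox genes SIX6 (5.07 to 9.80 against 0.401 to 1.95 RPKM) and VAX1 (5.09 to 12.3 against 0.649 to 2.56) and the zinc finger gene FEZF2 (6.84 to 13.5 against 0.515 to 3.18) were separated. FEZF1 had the largest mean difference among overlapping genes in this direction (62.2, 14.7 and 26.0 against 2.09, 1.49, 15.4, 7.94 and 2.22 RPKM, -2.44). PTN, the secreted factor pleiotrophin, was an abundant separated gene (235 to 322 against 99.9 to 153 RPKM, -1.10).

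**Figure D4:**
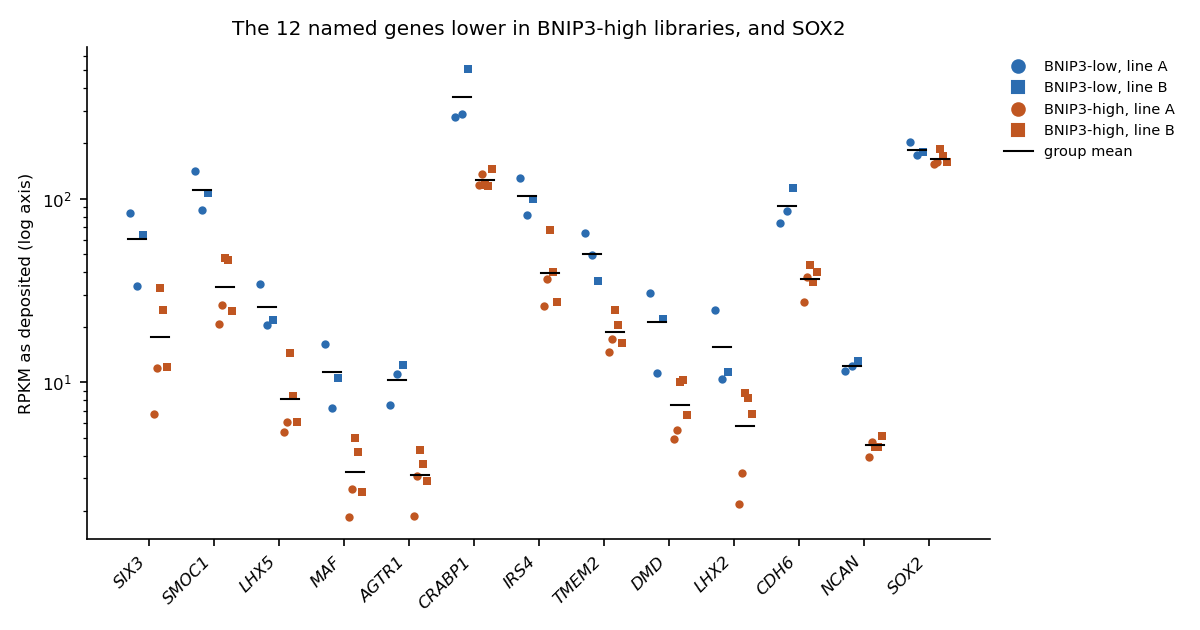
RPKM as deposited (log axis) of the 12 named genes that were separated and lower in the BNIP3-high libraries, and of SOX2, 1 point per library, circles for line A and squares for line B, blue for BNIP3-low and orange for BNIP3-high, with a bar at each group's mean. NCAN shows tight groups (11.5 to 13.1 against 3.93 to 5.10 RPKM), SIX3 wide ones (33.6 to 83.6 against 6.75 to 32.8 RPKM), and SOX2 overlaps (173 to 205 against 154 to 186 RPKM).

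In the neural marker list 3 of 6 genes lay lower without overlap as deposited (20.9% of all features) and 0 higher. After median-of-ratios scaling 2 lay lower (11.6% of all features), and the median as deposited was -0.30. SOX1, an early neural plate factor, was the separated one (6.86, 3.88 and 4.93 against 1.15, 1.25, 1.63, 2.20 and 1.94 RPKM, -1.13). PAX6 overlapped at a low level (2.22, 0.669 and 1.61 against 0.0352, 0.0183, 0.875, 0.357 and 0.183 RPKM). It passed the filter only through BNIP3-low libraries, so nothing is read from its direction. STMN2, a tubulin-binding protein, lay lower at a high level (518 to 615 against 416 to 506 RPKM, -0.20), and the progenitor filament NES overlapped (62.2 to 83.2 against 57.8 to 78.7). NEUROD1, which marks neuronal commitment, stayed under 1 RPKM in all 8 libraries. Summed over the 8 markers matched, the level was 718 to 817 RPKM in the low and 581 to 691 in the high libraries. Most of this sum came from STMN2, so it does not show a difference across the list. Imprinted genes, expressed from 1 parental copy, held some of the widest spreads. MEST had 395, 105 and 290.5 against 33.9, 36.9, 126, 135 and 58.9 RPKM (-1.68), and DLK1 had 386, 111 and 170.2 against 37.0, 37.9, 154, 99.3 and 51.1 (-1.48). DLK1 overlapped because A P35 was under B P12, and MEST because A P35 was under both B P12 and B P24. For DLK1 A P13 was far above all others. NNAT had 933, 728 and 606 against 472, 538, 355, 521 and 579.6 RPKM (-0.51) and lay lower without overlap. With PEG3, PEG10 and MAGEL2 this made 4 of 10 as deposited (20.9% of all features). The count was 0 after median-of-ratios scaling (11.6%) and 3 after quantile normalization (12.0%). The median was -0.56. SNRPN overlapped (189.9 to 256 against 152 to 263 RPKM), and its sign turned with the scaling.

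Pluripotency genes differed by group of genes, and POU5F1 and NANOG are not among those described. SOX2 had 205, 173 and 179 against 154, 159, 186, 170.0 and 159 RPKM (-0.06) and overlapped. Of 6 core genes kept only LIN28B lay clear of overlap, lower (44.7 to 54.6 against 32.6 to 40.3 RPKM, -0.28). The DNA methyltransferase DNMT3B overlapped with opposite order in the 2 lines. It had 149 and 149.6 against 118 and 107 RPKM in line A, and 72.2 against 141, 134 and 118 in line B. Primed-state genes, typical of the epiblast around implantation, had a median of -0.32. Of them 3 of 8 lay lower without overlap as deposited (20.9% of all features) and 2 after median-of-ratios scaling (11.6%). The factor ZIC2 overlapped (101 to 146 against 97.3 to 106 RPKM), as did the chromatin protein HMGA2 (119 to 163 against 89.8 to 133). CDH2, or N-cadherin, lay lower (81.0 to 114 against 41.2 to 69.0 RPKM, -0.68). Of 6 naive-state genes matched 4 were kept, and 2 of these lay higher without overlap (7.34% of all features). SUSD2, a surface protein, was 1 of them (8.83 to 14.8 against 15.8 to 24.9 RPKM, 0.93). The other was ESRRB at a low level (0.359 to 0.553 against 1.08 to 1.90). ESRRB passed the filter only through the BNIP3-high libraries, so nothing is read from its place in the count. KLF4 overlapped (8.43 to 11.5 against 11.4 to 16.2 RPKM), and the median of the 4 kept, ESRRB included, was 0.68. WNT target genes, which IWR1 would hold down, overlapped in 5 of 5, NKD2 at 11.6 to 15.0 against 9.99 to 14.4 RPKM and TCF7 at 3.33 to 5.16 against 3.81 to 4.44.

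For the cell cycle, 4 of 12 DNA replication and G1/S genes lay lower without overlap (20.9% of all features) and 0 higher (7.34%). After median-of-ratios scaling 3 lay lower (11.6% of all features) and 1 higher (14.8%), and the median relative to all features was -0.23. Cyclin CCNE2 showed the largest difference (4.77 to 6.36 against 1.95 to 2.91 RPKM, -0.84). RRM2, a subunit of ribonucleotide reductase, had 156, 157 and 95.1 against 84.7, 96.0, 97.8, 94.0 and 81.2 RPKM, so that A P13 and A P35 stood apart and B P35 lay with the BNIP3-high libraries. The clamp protein PCNA had the same order (107, 113 and 60.1 against 60.5, 67.2, 68.2, 69.2 and 59.9). TYMS, thymidylate synthase, overlapped (87.5 to 107 against 98.1 to 116 RPKM). For mitosis, TOP2A (176 to 234 against 208 to 242 RPKM) and CCNB1 (83.4 to 104 against 85.2 to 92.8) overlapped. The list of 12 gave 2 lower and 0 higher as deposited but 0 lower and 3 higher after median-of-ratios scaling, so no direction is given.

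Markers of other cells that a culture could hold were read beside these results. Fibroblast and mesenchyme markers summed to 1795 to 2385 RPKM in the low and 1604 to 1817 in the high libraries, and FAP was under 1 RPKM throughout. Of the 18 kept, 4 lay lower without overlap as deposited (20.9% of all features) and 0 after median-of-ratios scaling (11.6%). Whether reads of the mouse feeder cells were counted is not given in the sources used here, so bovine and mouse RNA cannot be told apart in these markers. VIM, a filament of mesenchymal cells, had 713, 654 and 818 against 591, 605, 582, 523 and 557 RPKM (-0.24), and SPARC overlapped (308 to 433 against 333 to 343) with an unsettled sign. Hypoblast markers summed to 47.1 to 85.9 against 66.3 to 76.8 RPKM, mostly from the apolipoprotein APOA1. APOA1 had 44.3 to 80.8 against 63.8 to 72.2 RPKM and PDGFRA 0.954 to 2.26 against 0.688 to 2.46, while GATA4, GATA6, SOX17, HNF4A and AFP stayed under 1 RPKM. Mesoderm and streak markers summed to 5.84 to 10.6 against 6.66 to 8.21 RPKM. GSC lay lower (2.26 to 5.00 against 0.916 to 2.01 RPKM, -0.88), BMP4 overlapped (3.27 to 5.27 against 4.65 to 6.17), and T, EOMES and MIXL1 were under 1. Blood and immune markers summed to 23.6 to 57.0 against 18.3 to 29.9 RPKM. LYZ had 1.46 to 34.6 against 5.63 to 11.6 and CD34 10.2 to 28.9 against 9.22 to 18.99, with PTPRC, CD14, HBB and AIF1 under 1. The part of these cells and of the lower depth of A P35 in the differences was not tested.

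Within each line the same genes kept their direction. All 49 higher and all 70 lower features had the same sign within line A (A P23 and A P45 against A P13 and A P35) and within line B (B P12, B P24 and B P46 against B P35). The choice of features without overlap fixes this. The size differed: as deposited the difference reached 1 in 40 of 49 and 69 of 70 features within line A, but in 28 and 38 within line B. Median differences were 1.65 and -1.28 in line A, and 1.16 and -0.97 in line B. ANKRD37 differed by 3.52 in line A and 1.16 in line B, ADM by 3.38 and 1.08, STC2 by 2.54 and 2.00, and VGLL1 by 1.14 and 2.52. Taken alone, line A gave 140 separated features higher and 179 lower from 2 against 2 libraries, and line B 65 and 101 from 3 against 1. No test of the difference between the lines was made, because the split was made on these values.

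**Figure D5:**
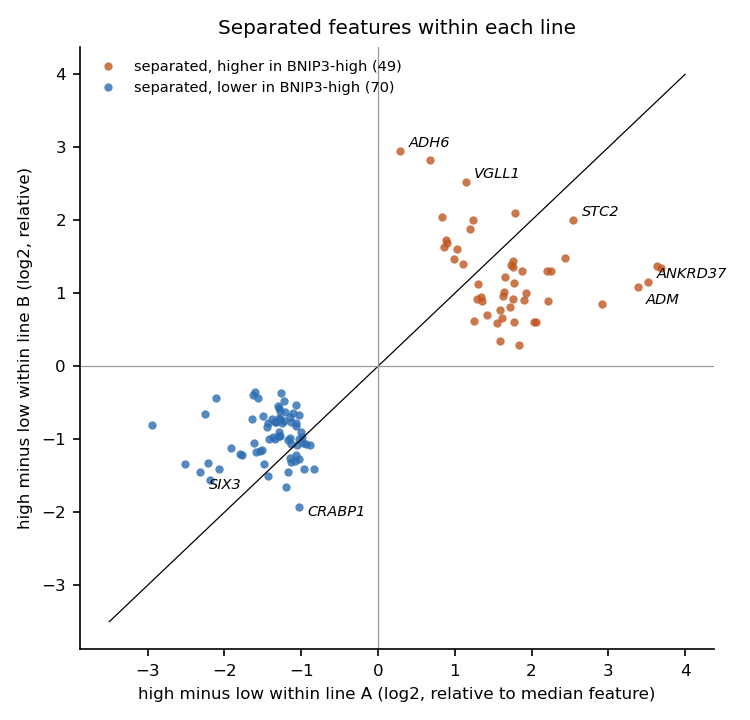
Each point is 1 of the 119 separated features, with its difference (BNIP3-high minus BNIP3-low, log2, relative to the median feature of that line) within line A on the x axis and within line B on the y axis; orange marks the 49 higher and blue the 70 lower features, and the diagonal marks equal differences. ANKRD37 and ADM lie far below the diagonal (3.52 in line A and 1.16 in line B for ANKRD37), ADH6 far above it (0.29 and 2.95).

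Whether genes follow the study's own labels was tested with limma on all 12784 features, with terms for line and passage; the p-values measure the spread between serial passages of 2 lines. Between lines A and B, 2 features (0.0156%) passed an adjusted p of 0.05, both lower in line A: ULBP3, a ligand of natural killer cell receptors (line A minus line B -2.48 ± 0.20 SE on the log2 scale, limma adjusted p = 0.0136), and SYCP3, a protein of meiotic chromosomes (-1.45 ± 0.14 SE, limma adjusted p = 0.0234). ULBP3 was lower in every line A than in every line B library, at (in order of passage) 0.0689, 0, 0.145 and 0.0742 against 8.28, 6.19, 3.45 and 3.26 RPKM, and so was SYCP3. These calls were fragile, with 0 features called when the filter on low values was dropped and 0 to 5 when 1 library was left out. With passage, no feature (0%) passed limma's threshold, the smallest adjusted p being 0.706; at an unadjusted p under 0.05 there were 755 features for line and 494 for passage. None of the 66 hypoxia, glycogen and glycolysis genes was called for either, with a smallest limma adjusted p of 0.734 for line and 0.792 for passage. The difference between BNIP3-low and BNIP3-high libraries lies in the residual spread of this fit, so nothing is read from the separated features not being called. With 4 passages a line, a p above the threshold does not show that a gene is the same in both lines or at all passages.

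The other file set was normalized separately, so its levels are only set side by side, with no test. At P10, STC2 stood at 10.4 RPKM in the line A library and 0.835 in that of line B, CHAC1 at 26.6 and 1.31, DDIT4 at 105 and 37.5, and TRIB3 at 6.45 and 0.437. BHLHE40 stood the other way at 0.440 and 2.87 RPKM, and LCK at 6.36 and 11.4, so the P10 pair did not fall on 1 side as a whole. Among the 36 of 49 higher features also present there, 7 were higher by at least 1 log2 unit in line A at P10 and 9 in line B, with 1.02% and 4.36% of all 10613 shared features so placed. Both P10 libraries lay under the lowest later library for 18 of the 36 (26.7% of all shared features) and over the highest for 0 (9.48%). For the 58 lower features shared, these numbers were 1 and 16, and SIX3 had 68.7 and 70.4 RPKM, SMOC1 109 and 119.7, and IRS4 210.5 and 257 at P10. In the blastocyst pools AK4 had 29.5 and 27.8 RPKM and HK2 19.2 and 27.8, while SIX3, LHX5 and AGTR1 were listed at 0.0230 or less. In the skin fibroblasts BHLHE40 reached 87.5 and 58.2 RPKM, CHAC1 10.2 and 11.2, and VIM 6999.9 and 5799.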

How the data were processed

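RNA of each sample was sequenced from TruSeq libraries, per the labels. The authors deposited 1 table of RPKM per library and no counts were used here; per the submitters' processing notes the genome build was UMD3.1 and edgeR was used, while aligner, annotation and counting were not given in the sources used here. The 8 later-passage tables share a feature list, in which 26 names that had become date numbers in 5 files were restored from the others by row; the other 6 tables form a second set (23159 of 23231 rows used). Values were analysed as log2(RPKM + 1) after a filter of at least 1 RPKM in at least 2 of 8 libraries, with pandas 2.3.3 and numpy 2.4.6 in Python 3.11.15. BNIP3-low and BNIP3-high libraries were described without a test. Line and passage were tested with limma 3.58.1 in R 4.3.3 (trend, two-sided, Benjamini-Hochberg over all features), a step also tested on simulated data. Symbols were matched to a RefSeq table (ARS-UCD2.0) for 84.09% of the features kept; Ensembl identifiers without a symbol are counted but not named, and coordinates are not given because the builds differ. Genes were named by rule: in each direction the 12 largest separated differences with a symbol and, in the higher group, a mean RPKM of at least 10, up to 4 separated members of each of 33 gene lists or else its 2 most abundant members, all oxygen sensing genes and SOX2. Every other gene was chosen after its values were seen. Some list members are not reported here by name. The groups and the lists were chosen with earlier results of these data known. Alternatives covered the pseudocount, the filter, 2 other scalings, leaving out libraries, each line alone and the BNIP3 state as a term.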

Additional observations from a re-analysis of the deposited data

Results flagged for a closer look

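Among the 5 BNIP3-high libraries, 118 values (named genes and list means on the log2 scale) were searched for a library standing off from the other 4 by more than 0.71 of the group's range, which about 1 in 20 groups would show by chance, and 6 were found. ADM was highest in A P45, with a gap of 0.779 of the range (88.5 RPKM against 65.3 to 69.8 in the others), and FOS highest in B P12, with 0.791 (159 RPKM, the others 68.1 to 81.4). B P24 stood off in 3 list means: it was lowest for secreted and surface hypoxia genes (0.891 of the range, 3.69 on the log2 scale against 3.91 to 3.94), highest for nuclear genes of the respiratory chain (0.78, 6.96 against 6.82 to 6.85) and highest for NRF2 targets (0.904, 4.62 against 4.17 to 4.21). The mean of the blood and immune markers was lowest in B P12 (0.827 of the range).

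In 8 named genes all libraries of line A had 1 order between the BNIP3 groups and all libraries of line B the opposite order; line B has 1 BNIP3-low library, and the difference was not tested. The difference between BNIP3-high and BNIP3-low in line A minus that in line B, on the log2 scale, was -1.26 for DNMT3B, -0.281 for COX3, -0.358 for TYMS, -0.295 for CCNB1, -0.401 for HIF1AN, 0.499 for FTH1, 0.471 for TCF7 and 0.586 for HIF3A. Over all 8 libraries the sign of the difference turned with the scaling for COX3, CCNB1, FTH1 and HIF3A. For FTH1, the ferritin heavy chain, B P35 had the highest value of all 8 libraries (2372 RPKM, the others 1570.4 to 2031).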

How the results depend on the processing

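No named gene that was separated changed sign under any alternative run. The choice of genes without overlap fixes this in every run except the 2 other scalings. Of 1439 recomputed gene values 1291 moved by less than the spread between libraries. Within line B only 34 of 85 named genes did so and 51 moved further, with the same numbers without A P13 and A P35. Within line A 64 did so and 21 moved further. The separated features numbered 102 higher and 182 lower with a pseudocount of 0.1 in place of 1. They were 45 and 45 with a filter of at least 5 RPKM in 3 libraries. Lower features numbered 44 after quantile normalization and 46 after median-of-ratios scaling. Without the minimum difference there were 938 higher and 2669 lower. Line A alone gave 140 and 179. Without A P13 and A P35 the lower features numbered 123 (64 higher), and without A P35 and B P24, an alternative chosen after seeing the data, 82 higher and 124 lower. Leaving out 1 library at a time gave 43 to 105 higher and 59 to 116 lower, with the maximum without B P35, and 108 lower without A P35. Calls between lines numbered 5 with a pseudocount of 0.1, 0 without a filter, 1 with the stricter filter and under either scaling, 6 with the BNIP3 state as a term, and 0 to 5 with 1 library left out; passage gave 1 call with the BNIP3 state and 0 to 2 with 1 library left out (2 without A P23). The cause of these shifts was not tested. No paired analysis was possible because the replicate numbers of the 2 lines follow accession order and pair no samples; passage number is a covariate of the fit instead. Depth in reads is unknown, so no counting error is given, and genes near 1 RPKM rest on few reads.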

Other observations

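Features without a gene symbol held some of the largest differences, and the 3 given here were picked with their values in view. ENSBTAG00000026418 had 5.39, 24.3 and 30.1 RPKM in A P13, A P35 and B P35 against 131, 171, 65.4, 61.7 and 103 in A P23, A P45, B P12, B P24 and B P46, and ENSBTAG00000026417 had 6.61, 21.5 and 29.8 against 131, 167, 67.9, 62.0 and 103. Their values were within a few RPKM of each other in every library, and how reads were shared between them is not given in the sources used here. In the other direction ENSBTAG00000011113 had 23.0, 5.24 and 4.33 against 0.425, 0.504, 3.46, 1.97 and 0.882 RPKM. Of the separated features, 36 of 49 higher and 58 of 70 lower have a symbol in the RefSeq table.

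TMSB4X, which encodes an actin-binding peptide, was listed at 0 in A P35 and had 142 and 91.4 RPKM in the other BNIP3-low libraries and 58.2 to 157 in the BNIP3-high ones, so its mean difference of 2.21 comes from that 0. TAGLN, a smooth muscle and mesenchyme protein, separated the lines' low libraries from each other: 52.4 and 63.1 RPKM in A P13 and A P35, 264 in B P35, and 126 to 194 in the BNIP3-high group. GADD45A, a stress-induced gene, had the same order at 18.6, 16.2, 50.7 and 31.8 to 41.4 RPKM.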
